A study of Rattus norvegicus with 6 samples.

Results

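The genes described here make cholesterol, take it up and move it inside the cell, or store and export it. They were chosen by name: 27 symbols were looked up in the deposited table of 34257 genes, and each was found in exactly 1 row. Of these, 18 encode enzymes of synthesis, 1 is the feedback gene Insig1, 4 act in uptake and intracellular transport, and 4 in efflux and esterification. The samples were primary cultures of ventricular heart muscle cells from newborn rats, called neonatal rat ventricular cardiomyocytes in the labels. Of the 6 libraries, 3 were made from cells exposed for 24 h to 1 µM perhexiline, and 3 from vehicle cultures; the vehicle's solvent and duration are not stated in the labels. Perhexiline is an antianginal drug that blocks carnitine palmitoyltransferase 1, which admits long-chain fatty acids to mitochondria. The comparison asks what the drug changed in the transcriptome, here among the cholesterol genes. No genotype or other agent is named, and nothing in the labels says whether replicates were separate cultures or animals, so p-values reflect the scatter of these libraries alone, part or all of which may be technical.

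Animal cells build cholesterol from acetyl-CoA through mevalonate, squalene and lanosterol. When sterols run low in the endoplasmic reticulum, the SREBP transcription factors are carried to the Golgi by SCAP, cut there, and switch on most genes of the route together with genes of uptake. When sterols are plentiful, INSIG proteins hold SCAP back, and oxysterols activate the LXR receptors, which raise the exporters ABCA1 and ABCG1. Heart muscle cells make part of their own cholesterol and take the rest from lipoproteins.

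Values are FPKM, fragments scaled to gene length and to a factor for each library, so levels can be compared between genes. That factor lay -0.94% to 0.32% from one based on the median ratio of gene counts between libraries. From one based on total fragments it lay 1.39% to 2.89% in the perhexiline libraries and -3.40% to -0.02% in the vehicle libraries. Fragments recovered from them numbered 14863929 to 16702523 in the perhexiline libraries and 13616252 to 15241994 in the vehicle libraries. Cardiomyocyte markers, 7 of which were analysed, summed to 12564 to 14463 FPKM with perhexiline and 15408 to 18606 with vehicle, and 2 of them (Myh6, Tnni3) were called lower. Fibroblast markers, all 8 analysed, summed to 1003 to 1050 and 1044 to 1083 FPKM, with 2 called higher and 1 lower, while 4 liver cell markers stayed under 1 FPKM in every library. The part of these shifts in the cholesterol values was not tested, and in bulk RNA fewer cells of a type cannot be told apart from less RNA per cell. Among 13460 tested genes, 478 were called higher and 418 lower with perhexiline (53.3% higher), a share that changed to 42.4% when libraries were scaled by upper quartile and to 70.7% when scaled by total fragments.

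All 27 cholesterol genes passed the filter on low values, with levels from 5.25 to 132 FPKM in single libraries. With perhexiline 2 of them rose, the sterol isomerase gene Ebp and the cholesterol esterification gene Soat1, and none fell. A gene was called when its adjusted p (limma on log2(FPKM + 1), Benjamini-Hochberg over all tested genes) was under 0.05. The 2 calls are 7.41% of the 27 genes, close to the 6.66% of all tested genes that were called in either direction and above the 3.55% called higher. Differences above 0 were more common among the cholesterol genes: 21 of 27 (77.8%), against 52.9% of all tested genes. The share over all tested genes moved with the setting. It was 47.3% under upper-quartile scaling, 62.9% under total-fragment scaling and 55.8% with a filter at a mean FPKM of 5. Under these settings 21, 22 and 21 of the 27 were above 0. Their median log2 difference was 0.12, against 0.01 over all tested genes. The perhexiline libraries all lay above the vehicle libraries for 12 genes (44.4%), which was so for 17% of all tested genes, and all below for 1 gene, which was so for 14.9%. At an unadjusted limma p under 0.05 the same number, 12 genes, stood higher and none lower, where 13.4% of all tested genes stood higher and 25.7% differed either way. The highest ratio of mean FPKM was 1.36, for Acat2.

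**Figure D1:**
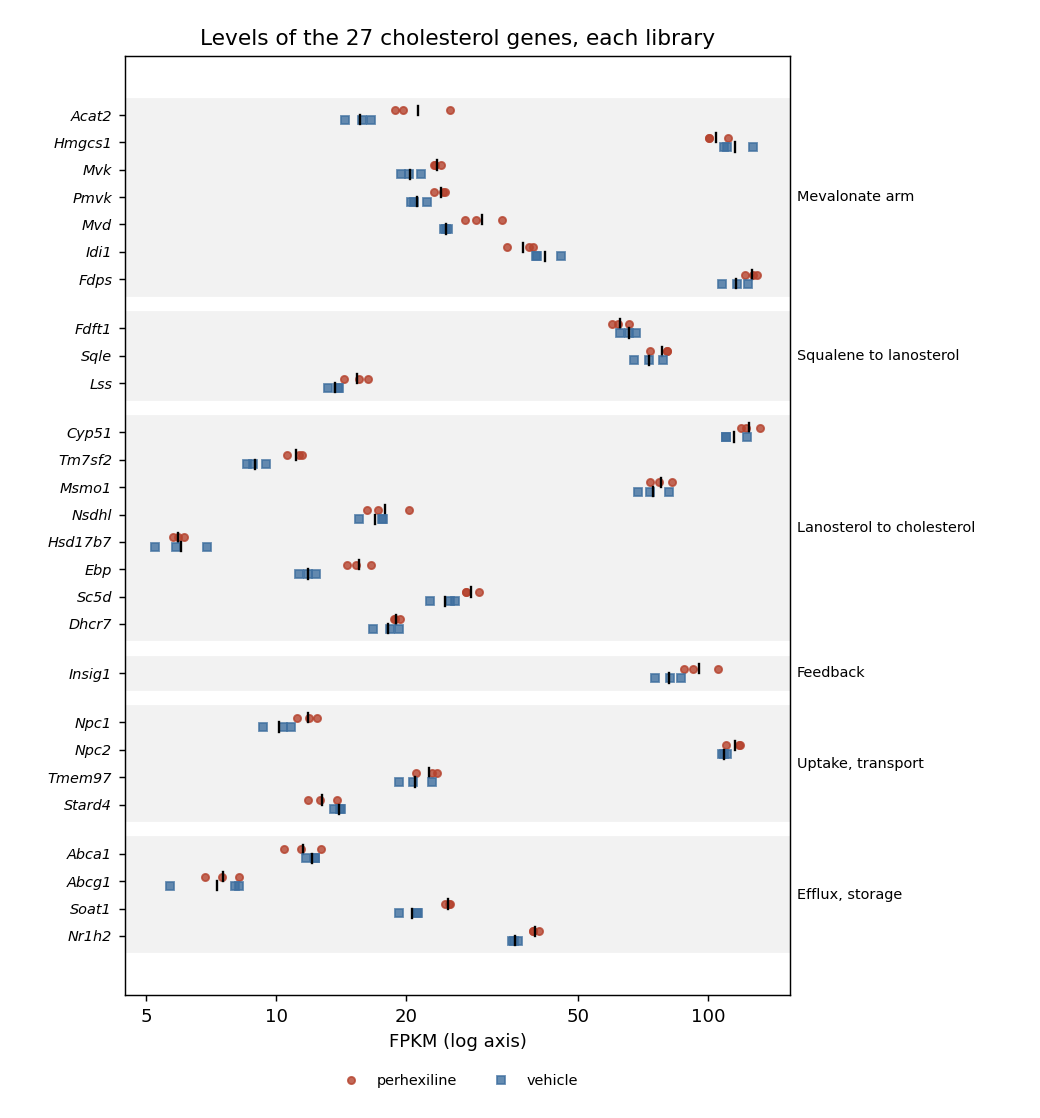
FPKM of the 27 genes in each library on a log axis, in pathway order. Circles are the 3 perhexiline libraries, squares the 3 vehicle libraries, and black ticks the group means. Vehicle means run from 6.02 FPKM (Hsd17b7) to 116 FPKM (Fdps), and the circles and squares lie close together or overlap for most genes.

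The mevalonate arm turns acetyl-CoA into farnesyl diphosphate, and limma called none of its 7 genes (4 at an unadjusted p under 0.05, and 1 with limma-voom). Of all tested genes, 25.7% had an unadjusted limma p under 0.05 in either direction, and 11.6% were called with limma-voom. The enzymes of the arm did not share a direction: 5 differences were above 0 and 2 below, with a median of 0.17 on the log2 scale. Acat2 encodes the cytosolic thiolase that joins acetyl-CoA units, and had 19.7, 25.3 and 18.9 FPKM with perhexiline, against 15.8, 14.4 and 16.6 FPKM with vehicle. The groups did not overlap, and perhexiline replicate 2 stood well above the other two. Its log2 difference of 0.41 ± 0.11 (SE) was the largest of the 27 but did not pass (limma adjusted p = 0.0687). It did pass with limma-voom on recovered fragments (adjusted p = 0.0301) and with a filter at a mean FPKM of 5 (limma adjusted p = 0.0464).

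Hmgcs1 encodes the cytosolic synthase that makes HMG-CoA and is a textbook SREBP target. It had 112, 101 and 100 FPKM with perhexiline, against 127, 109 and 110 FPKM with vehicle. The groups overlapped, because perhexiline replicate 1 was above vehicle replicates 2 and 3. Its log2 difference was -0.15 ± 0.073 (SE; limma adjusted p = 0.259). Idi1, the isomerase that interconverts the isoprene building blocks, had 39.4, 38.5 and 34.3 FPKM with perhexiline, against 45.6, 40.0 and 40.2 FPKM with vehicle. It was the only one of the 27 genes whose perhexiline libraries all lay below the vehicle libraries, by a narrow margin, and its log2 difference of -0.16 did not pass (limma adjusted p = 0.224). Idi1 overlaps Wdr37 on the other strand in the table, and whether counting used the strand is unknown.

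The kinases Mvk and Pmvk and the decarboxylase Mvd, which turn mevalonate into the first isoprene unit, all stood slightly higher with perhexiline and did not overlap. Mvk averaged 23.6 ± 0.501 FPKM with perhexiline and 20.5 ± 1.10 with vehicle (SD, n = 3 each, as throughout; limma adjusted p = 0.0818). For Mvd the libraries had 27.4, 33.4 and 29.1 FPKM with perhexiline, against 25.1, 24.5 and 24.7 FPKM with vehicle (limma adjusted p = 0.0774). The vehicle libraries of Mvd were almost equal, and perhexiline replicate 2 was again the highest. Pmvk averaged 24.1 ± 0.797 and 21.2 ± 1.02 FPKM with perhexiline and vehicle (limma adjusted p = 0.111). Fdps, the farnesyl diphosphate synthase at the branch point to sterols and prenyl groups, was the most abundant of the 27 genes by its vehicle mean, at 126 ± 4.13 FPKM with perhexiline and 116 ± 7.95 with vehicle. Its groups overlapped (limma adjusted p = 0.246).

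The promoters of Hmgcs1 and Fdps are shown because these are the most abundant genes of this arm. Both are 300-base RefSeq windows of build GRCr8, 250 bases before to 50 after the start, 5′ to 3′ on the gene's strand. The Hmgcs1 window is chr2:53382054-53382353 on the plus strand, and that of Fdps is chr2:176804767-176805066 on the minus strand. Capitals mark the CCAAT box, the letters bound by the factor NF-Y, a usual partner of SREBP; on the other strand it reads ATTGG.
Hmgcs1: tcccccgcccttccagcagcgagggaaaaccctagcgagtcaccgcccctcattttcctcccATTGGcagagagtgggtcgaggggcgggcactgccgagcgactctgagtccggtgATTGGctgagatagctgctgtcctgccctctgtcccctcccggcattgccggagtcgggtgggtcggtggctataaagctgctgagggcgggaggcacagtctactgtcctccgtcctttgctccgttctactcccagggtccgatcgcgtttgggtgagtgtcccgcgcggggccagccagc
Fdps: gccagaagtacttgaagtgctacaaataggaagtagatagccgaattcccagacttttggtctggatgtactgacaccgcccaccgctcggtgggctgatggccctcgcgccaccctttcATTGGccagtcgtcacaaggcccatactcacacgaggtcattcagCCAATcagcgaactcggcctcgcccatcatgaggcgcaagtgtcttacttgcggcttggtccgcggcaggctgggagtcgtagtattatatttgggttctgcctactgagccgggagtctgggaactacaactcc
Each window holds 2 CCAAT boxes, which begin 188 and 133 bases before the start in Hmgcs1 and 130 and 85 bases before it in Fdps. RefSeq windows were matched for 22 of the 27 genes (not for Abcg1, Fdft1, Pmvk, Sqle and Stard4), and 16 of the 22 held CCAAT on either strand, including 12 of 15 synthesis genes, against 37.5% of all 33469 promoters of this length. At least 2 CCAAT boxes were found in 12 of the 22, against 11.2% of all promoters. The GC box GGGCGG was in 19 of the 22 on either strand, against 33.1% of all promoters and 62.6% of those of tested genes. The core of the sterol regulatory element, searched as TCACNCCAC on both strands, was in none of the 22 and in 1.12% of all promoters. These matches describe letters in a window, not binding sites.

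The 3 genes that lead from farnesyl diphosphate to lanosterol were not called by limma either (1 at an unadjusted p under 0.05, and 0 with limma-voom). The shares over all tested genes were 25.7% and 11.6%. Fdft1, the squalene synthase, averaged 62.6 ± 2.92 FPKM with perhexiline and 65.5 ± 2.80 with vehicle (limma adjusted p = 0.494). Sqle, the squalene epoxidase and a rate-limiting step of the route, had 80.4, 80.6 and 73.6 FPKM with perhexiline, against 78.9, 72.9 and 67.4 FPKM with vehicle (limma adjusted p = 0.409). For both genes the groups overlapped. Lss, the cyclase that forms lanosterol, had 14.4, 15.6 and 16.3 FPKM with perhexiline, against 13.2, 13.9 and 14.0 FPKM with vehicle. Its groups did not overlap, but the difference did not pass (limma adjusted p = 0.18).

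Of the 8 genes that turn lanosterol into cholesterol, Ebp rose and the others were not called, with 7 differences above 0 and 1 below. Ebp, the emopamil-binding protein, moves a double bond in the sterol ring (chromosome X, 15049462 to 15055781 in the table, build not given in the sources used here). It had 14.6, 16.6 and 15.3 FPKM with perhexiline, against 12.3, 11.3 and 11.9 FPKM with vehicle. All perhexiline libraries were above all vehicle libraries, with a 1.31-fold mean. The log2 difference was 0.36 ± 0.068 (SE; limma adjusted p = 0.0293), with a 95% interval from 0.20 to 0.52. Ebp was also the gene with the fewest fragments, 175 to 282 per library, for which counting alone gives a relative error of up to 7.56%. The call was lost without perhexiline replicate 2 (limma adjusted p = 0.0989), perhexiline replicate 3 (0.088), vehicle replicate 1 (0.0767) or vehicle replicate 2 (0.0936). In those fits the calls over all genes numbered 145, 108, 136 and 140. The Ebp call was also lost with no filter on low values (limma adjusted p = 0.0637) and with the replicate number as a block (0.0836).

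The Ebp promoter is printed because the gene was called (GRCr8, chrX:16971212-16971511, plus strand).
Ebp: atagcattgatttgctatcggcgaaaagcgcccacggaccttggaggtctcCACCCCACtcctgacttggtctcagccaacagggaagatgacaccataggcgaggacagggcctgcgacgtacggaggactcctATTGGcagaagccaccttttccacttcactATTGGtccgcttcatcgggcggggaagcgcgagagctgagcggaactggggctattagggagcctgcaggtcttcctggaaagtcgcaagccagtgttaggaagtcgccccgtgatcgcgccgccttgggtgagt
Capitals mark 2 CCAAT boxes on the other strand, 115 and 85 bases before the start, and the letters CACCCCAC, 199 bases before it. That shorter run of the sterol regulatory element was searched after the longer core had given no match. On both strands it was in 1 of the 22 promoters, that of Ebp, and in 2.70% of all promoters.

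Tm7sf2, a sterol reductase that acts early after lanosterol, was just outside the threshold. It had 10.6, 11.3 and 11.5 FPKM with perhexiline, against 9.50, 8.55 and 8.84 FPKM with vehicle, with no overlap (log2 difference 0.28 ± 0.068 SE; limma adjusted p = 0.0517). Tm7sf2 overlaps Vps51 on the same strand in the table, so their reads may be split. It passed under total-fragment scaling (limma adjusted p = 0.0315), with a pseudocount of 0.1 (0.0498), with a filter at a mean FPKM of 5 (0.0398) and with limma-voom (0.0364). Sc5d, which adds a double bond near the end of the route, averaged 28.2 ± 1.15 FPKM with perhexiline and 24.7 ± 1.71 with vehicle, without overlap (limma adjusted p = 0.125).

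The other genes of this stretch lay closer together. Cyp51, the lanosterol demethylase and the most abundant gene of the stretch, averaged 125 ± 6.68 FPKM with perhexiline and 115 ± 7.63 with vehicle (limma adjusted p = 0.274). Msmo1 and Nsdhl, which remove the methyl groups next, averaged 77.7 ± 4.72 and 74.5 ± 6.29 FPKM for Msmo1, and 17.9 ± 2.14 and 16.9 ± 1.20 FPKM for Nsdhl, with perhexiline and vehicle in that order. Dhcr7, which makes cholesterol from its last precursor in one branch, averaged 19.0 ± 0.294 FPKM with perhexiline and 18.1 ± 1.25 with vehicle. Hsd17b7, the ketoreductase that works with them, was the lowest of the 27 genes, at 5.94 ± 0.171 FPKM with perhexiline and 6.02 ± 0.854 with vehicle. The groups of all 5 of these genes overlapped.

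**Figure D2:**
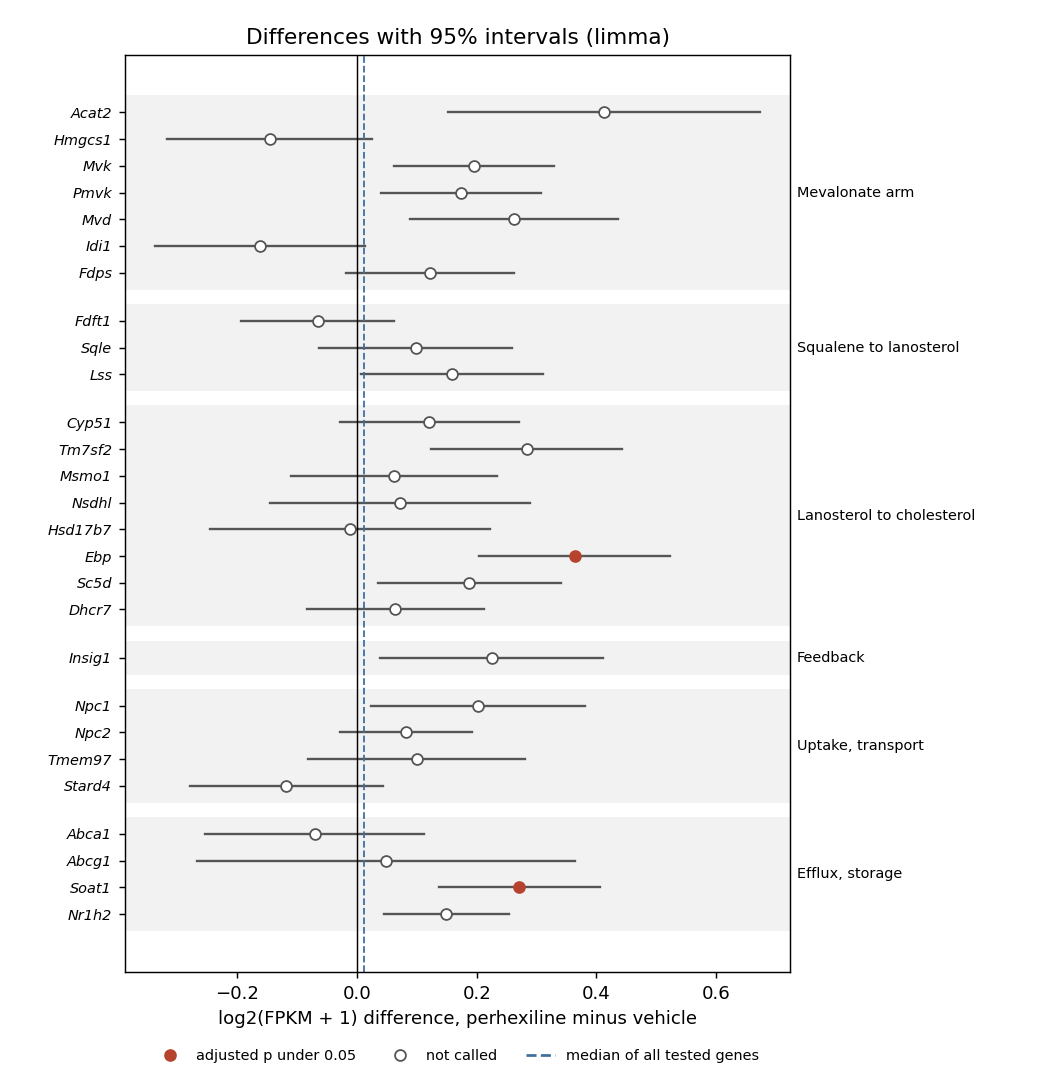
Log2(FPKM + 1) difference, perhexiline minus vehicle, of each gene with its 95% interval from limma. Filled points (Ebp, Soat1) have an adjusted p under 0.05, open points do not, the solid line is 0 and the dashed line the median of all tested genes (0.01). Most points lie right of 0, with 12 intervals wholly above it and none wholly below.

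Summed over the 18 synthesis genes, the level was 830, 847 and 793 FPKM with perhexiline, against 834, 755 and 762 FPKM with vehicle. The vehicle libraries spread as widely as the groups differed, because vehicle replicate 1 stood with the perhexiline libraries. Within the vehicle group, replicate 1 was the highest library for 12 of the 18 synthesis genes and replicate 2 the lowest for 13, against 31.9% and 31.8% of all tested genes. Among perhexiline libraries, replicate 2 was the highest for 10 of the 18, against 33.9% of all tested genes. Vehicle replicate 1 exceeded every perhexiline library for Hmgcs1, Idi1, Fdft1 and Hsd17b7. The cause of this order was not tested, and genes of one pathway are not independent of each other.

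**Figure D3:**
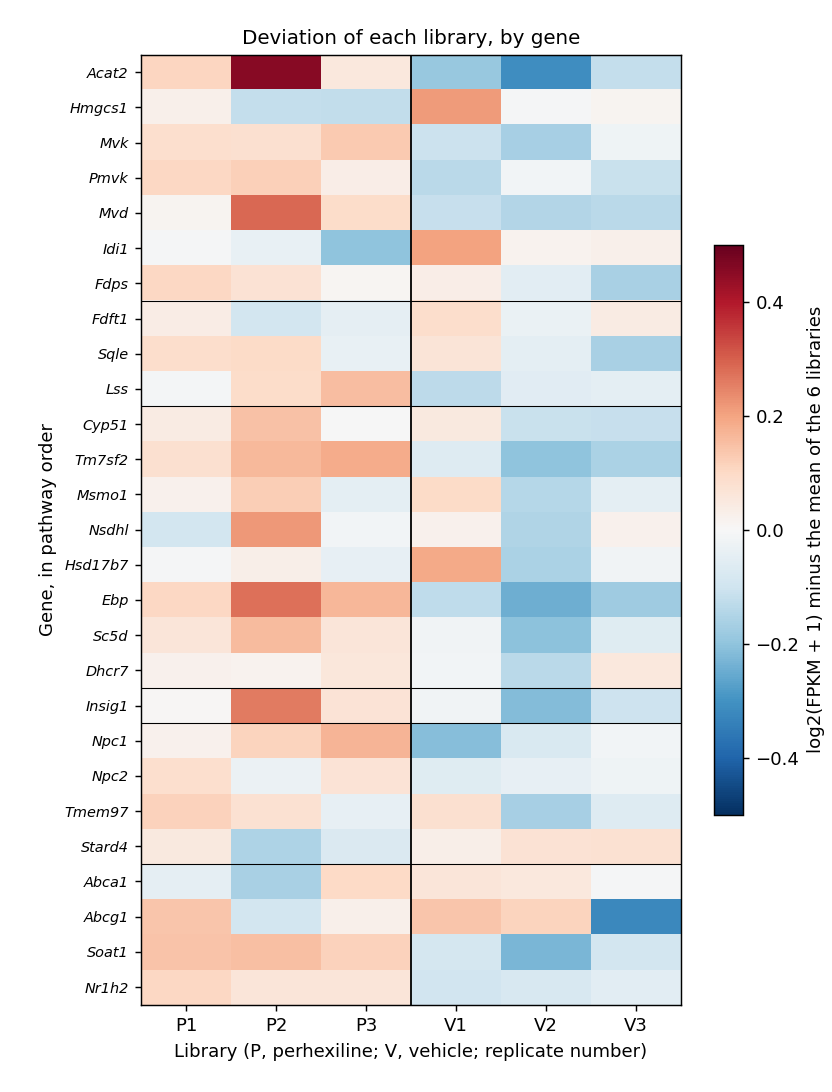
Each cell shows log2(FPKM + 1) of a gene in a library minus the mean of that gene over the 6 libraries, with perhexiline libraries on the left and vehicle libraries on the right; black lines part the pathway steps. Perhexiline replicate 2 is high for Acat2, Mvd, Ebp and Insig1, vehicle replicate 2 is low for most synthesis genes, and vehicle replicate 1 is high for Hmgcs1, Idi1 and Hsd17b7.

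Insig1 encodes the sterol-sensitive anchor that keeps SCAP in the endoplasmic reticulum, and is itself a target of SREBP. It had 88.2, 105.5 and 92.3 FPKM with perhexiline, against 86.7, 75.5 and 81.7 FPKM with vehicle. The groups did not overlap, although perhexiline replicate 1 was only slightly above vehicle replicate 1. The log2 difference of 0.22 ± 0.080 (SE) did not pass (limma adjusted p = 0.13). Its promoter, the only one of the feedback step, is GRCr8 chr4:8057720-8058019 on the minus strand, with its single CCAAT box in capitals, 193 bases before the start. The deposited coordinates, of a build that is not given, place Insig1 on the plus strand of chromosome 4 (342302 to 350515). Windows were matched by symbol only, and the reason for this difference was not tested.
Insig1: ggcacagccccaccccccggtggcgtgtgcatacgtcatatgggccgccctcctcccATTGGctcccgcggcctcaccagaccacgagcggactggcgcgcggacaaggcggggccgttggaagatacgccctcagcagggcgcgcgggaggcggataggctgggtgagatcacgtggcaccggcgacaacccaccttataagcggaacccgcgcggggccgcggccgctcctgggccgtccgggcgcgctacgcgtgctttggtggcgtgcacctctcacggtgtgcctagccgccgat

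None of the 4 genes of uptake and intracellular transport was called by limma, with 3 differences above 0 and 1 below. At an unadjusted limma p under 0.05 there was 1 (25.7% of all tested genes in either direction), and with limma-voom 0 (11.6%). Npc1 and Npc2 encode the pair of proteins that hand cholesterol out of the lysosome. Npc1 had 11.2, 11.9 and 12.5 FPKM with perhexiline, against 9.33, 10.4 and 10.8 FPKM with vehicle, without overlap (limma adjusted p = 0.151). Npc1 overlaps Rmc1 on the other strand in the table. Npc2, the luminal partner, was far more abundant per length, at 116 ± 4.84 FPKM with perhexiline and 109 ± 1.53 with vehicle (limma adjusted p = 0.314). Tmem97, a membrane protein that binds NPC1, averaged 22.6 ± 1.33 FPKM with perhexiline and 21.0 ± 1.88 with vehicle (limma adjusted p = 0.458). Stard4, a soluble sterol carrier and an SREBP target, had 13.9, 11.9 and 12.7 FPKM with perhexiline, against 13.6, 14.1 and 14.1 FPKM with vehicle. Its groups overlapped through perhexiline replicate 1, and its log2 difference of -0.12 did not pass (limma adjusted p = 0.323).

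Of the 4 genes of efflux and esterification, Soat1 rose and the exporters were not called. Soat1 encodes the acyltransferase that turns free cholesterol into esters for storage in lipid droplets (chromosome 13, 74035080 to 74077783 in the table). It had 25.2, 25.3 and 24.7 FPKM with perhexiline, against 21.3, 19.2 and 21.2 FPKM with vehicle. The perhexiline libraries were nearly equal and all above the vehicle libraries, with a 1.22-fold mean. Its log2 difference was 0.27 ± 0.058 (SE; limma adjusted p = 0.038), with a 95% interval from 0.14 to 0.41. The call was lost under upper-quartile scaling (0.0508) and in 5 of the 6 fits without 1 library (limma adjusted p up to 0.128), namely all but the fit without vehicle replicate 3. The Soat1 promoter is shown because the gene was called (GRCr8, chr13:71147623-71147922, minus strand); it holds 1 CCAAT box, in capitals, 129 bases before the start.
Soat1: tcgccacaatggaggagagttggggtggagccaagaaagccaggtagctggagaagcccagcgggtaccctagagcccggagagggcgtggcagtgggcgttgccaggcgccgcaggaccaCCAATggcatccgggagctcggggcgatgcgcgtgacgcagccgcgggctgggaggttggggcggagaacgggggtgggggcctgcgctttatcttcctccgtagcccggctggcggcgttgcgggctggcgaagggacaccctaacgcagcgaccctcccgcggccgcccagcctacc

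The exporters moved little. Abca1, which loads cholesterol onto apolipoprotein A-I, had 11.4, 10.4 and 12.7 FPKM with perhexiline, against 12.3, 12.3 and 11.7 FPKM with vehicle (log2 difference -0.07; limma adjusted p = 0.614). Abcg1, which exports cholesterol to mature high-density lipoprotein, had 8.21, 6.84 and 7.50 FPKM with perhexiline, against 8.20, 8.03 and 5.68 FPKM with vehicle (limma adjusted p = 0.851). For both exporters the groups overlapped, and the Abcg1 interval was the widest of the 27, from -0.27 to 0.36. Nr1h2, which encodes the receptor LXR-beta, averaged 39.7 ± 0.754 FPKM with perhexiline and 35.7 ± 0.557 with vehicle. Its groups did not overlap, and it did not pass (log2 difference 0.15 ± 0.045 SE; limma adjusted p = 0.0867), except under total-fragment scaling (0.0463). Macrophages are rich in cholesterol efflux genes, and their 8 markers summed to 45.1 to 70.0 FPKM with perhexiline and 83.2 to 90.4 FPKM with vehicle. Of 6 tested macrophage markers 2 (C1qa, Mrc1) were called lower and none higher. None of the 8 was at 0 in all libraries, and Adgre1 and Cd163 stayed under 1 FPKM. Their part in the values of Soat1, Abca1 and Abcg1 was not tested.

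Not passing does not show that a gene was unaffected. For the 25 genes that were not called, the 95% intervals of the log2 difference lay between -0.34 (Idi1) and 0.67 (Acat2), so changes of the size of a log2 difference of 1 lay outside each of them. Of these intervals 15 covered 0 and 10 lay above it. The spread of the 27 genes within groups was small, with a median coefficient of variation of 5.56% with perhexiline and 6.85% with vehicle, against 7.45% and 7.64% over all tested genes.

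Genes around the 27, listed from general knowledge of the pathway, gave 4 rises and 2 falls among 64 tested, beside 3.55% of all tested genes called higher and 3.11% called lower. The counts of the lists that follow stand beside the same background, 6.66% in either direction, and with so few genes in each they set no list apart from it. In the list of SREBP processing and degradation 2 of 11 rose and none fell. These were Scap, the SREBP escort, at 25.3 ± 1.34 FPKM with perhexiline and 20.6 ± 0.958 with vehicle (limma adjusted p = 0.0408), and Rnf145, a ubiquitin ligase that acts on SCAP in mouse, at 19.0 ± 1.39 and 15.2 ± 0.435 FPKM (0.0408). Among 5 further enzymes of synthesis 1 rose and 1 fell. Por, the reductase that feeds electrons to CYP51 and squalene epoxidase, averaged 76.5 ± 5.56 FPKM with perhexiline and 62.1 ± 1.54 with vehicle (limma adjusted p = 0.0358). Acat1, the mitochondrial thiolase of ketone body and isoleucine breakdown, fell to 31.9 ± 3.11 FPKM with perhexiline, against 43.5 ± 2.47 with vehicle (0.0261), so this fall and the difference of its cytosolic relative Acat2 had opposite signs.

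Among 9 tested genes of lipoprotein uptake 1 fell and none rose. That was Sort1, the sorting receptor sortilin, at 21.4 ± 1.59 FPKM with perhexiline and 26.5 ± 0.456 with vehicle (limma adjusted p = 0.039). Of 14 tested genes of LXR signalling, efflux and oxysterols 1 rose, Lpcat3, an acyltransferase of membrane phospholipids and an LXR target, at 64.6 ± 1.26 and 55.1 ± 2.58 FPKM with perhexiline and vehicle (0.0422). Of 13 tested genes of lysosomal and membrane transfer none was called. At an unadjusted limma p under 0.05 there was 1, lower (25.7% of all tested genes in either direction), and with limma-voom 0 (11.6%). The most abundant of the 13, Lamp1, a lysosomal membrane protein, averaged 154 ± 4.08 FPKM with perhexiline and 144 ± 6.50 with vehicle. Its relative Lamp2 averaged 82.4 ± 2.00 and 78.4 ± 1.98 FPKM. Each of the 6 calls was lost in at least 4 of the 6 fits without 1 library, with limma adjusted p up to 0.138.

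How many of the 27 genes passed depended on the setting. The number was 3 with a pseudocount of 0.1, where 6.6% of all tested genes were called in either direction. It was 4 with a filter at a mean FPKM of 5 (11.9% of all tested genes), under total-fragment scaling (8.56%) and with limma-voom (11.6%, 5.62% being called higher). It was 1 under upper-quartile scaling (6.43%) and without perhexiline replicate 1 (6.47%), and 2 without vehicle replicate 3 (6.75%). It was 0 with no filter on low values, with the replicate number as a block, and without perhexiline replicate 2, perhexiline replicate 3, vehicle replicate 1 or vehicle replicate 2. In those fits the share called among all genes was also low, between 0.704% and 1.29%. No setting called any of the 27 genes lower.

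**Figure D4:**
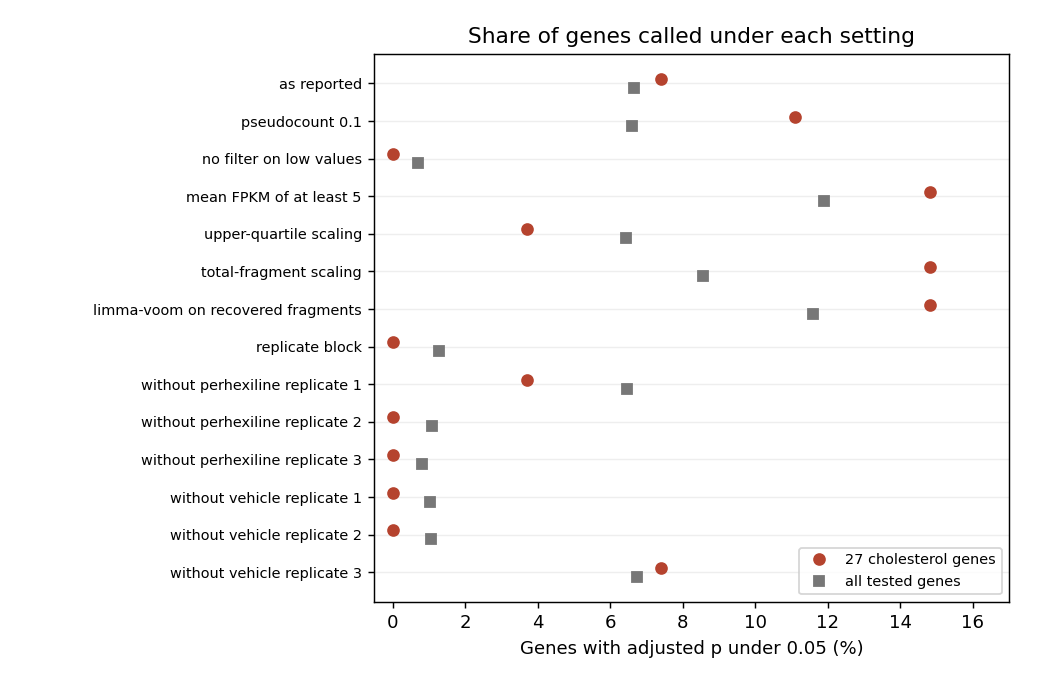
Share of the 27 cholesterol genes (circles) and of all tested genes (squares) with an adjusted p under 0.05, in percent, under each setting, with 1 row per setting. Both are at or near 0 with no filter on low values, with the replicate block, and without perhexiline replicate 2 or 3 or vehicle replicate 1 or 2. Both are high with limma-voom or a filter at a mean FPKM of 5.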

How the data were processed

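Poly(A) RNA of 3 perhexiline and 3 vehicle libraries was measured, and libraries were grouped by their titles. Per the file headers, the authors deposited FPKM for each gene in each library, with the gene's length in bases. The submitters' processing notes name DESeq2 and HISAT2 2.0.5, without their roles (build, annotation and counter: not given in the sources used here). Multiplied by gene length, 100% of positive FPKM were whole multiples of a library's smallest step (tolerance 0.01), taken as fragments.

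Genes reaching an FPKM of 1 in 3 or more libraries entered the test, limma 3.58.1 (R 4.3.3) on log2(FPKM + 1) (group as the only term, empirical Bayes with trend, two-sided) with a threshold of 0.05 on the p adjusted by Benjamini-Hochberg. All adjusted p-values are from this fit unless another is named, log2 differences understate changes at low levels, and ratios are of mean FPKM. The fit was tested on simulated data with no changed gene or with fold changes larger than those of the 27 genes. Recovery of differences as small as theirs was not tested. The 27 genes and the lists were chosen with earlier results of these data known, so they are not independent evidence. All 27 genes are named; of each further list, called genes with the smallest adjusted p (at most 4) or the 2 most abundant. Promoters are RefSeq windows. Alternatives were other pseudocounts, filters and scalings, limma-voom, the replicate number as a block, and each library left out.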

Additional observations from a re-analysis of the deposited data

How the results depend on the processing

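Of 351 refits of single cholesterol genes under the 13 alternatives, 324 kept direction and side of the threshold. Over all genes, the higher and lower counts were 99 and 63 when low values were kept (no filter), 757 and 805 with limma-voom, and 815 higher under total-fragment scaling; without 1 library they ranged from 69 to 423 and from 35 to 471. The cholesterol genes called higher numbered 0 with no filter, 4 with a mean FPKM of at least 5, 1 under upper-quartile scaling, 4 under total-fragment scaling and 4 with limma-voom, and 0 to 2 without 1 library. In the first 5 of these settings 0.704%, 11.9%, 6.43%, 8.56% and 11.6% of all tested genes were called in either direction. For synthesis genes the counts were 2 with a pseudocount of 0.1, then 0 with no filter, 3 with a mean FPKM of at least 5, 2 under total-fragment scaling and 3 with limma-voom, and 0 to 1 without 1 library. For efflux and esterification genes they were 0 with no filter and under upper-quartile scaling, 2 under total-fragment scaling, and 0 to 1 without 1 library. Of the other genes of the pathway, 0 were called with no filter, 1 was higher under upper-quartile scaling and 1 lower under total-fragment scaling; 0 to 3 were higher and 0 to 3 lower without 1 library. The cause of these moves was not tested. Signs reversed for 3 genes near 0: Hsd17b7 (0.038 under total-fragment scaling, and -0.092 to 0.081 without 1 library), Nsdhl (-0.017 to 0.14 without 1 library) and Abcg1 (-0.10 to 0.13 without 1 library). With the replicate block, 101 genes were higher and 72 lower, and 0 cholesterol genes, 0 synthesis genes, 0 efflux genes and 0 other pathway genes passed. Whether the replicate numbers pair the libraries is not stated in the labels. Deviations of same-numbered libraries from their group means correlated at -0.02, -0.10 and -0.04. With so few libraries per group these values cannot decide it. Depth left 175 to 7106 fragments per cholesterol gene and library.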

Other observations

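Farnesyl diphosphate also feeds a branch that makes no sterol: the prenyl groups of small GTPases, the dolichol of glycoproteins and the side chain of coenzyme Q. Of 12 tested genes of that branch none was called in either direction by limma, beside 6.66% of all tested genes. At an unadjusted limma p under 0.05 there were 2 higher and 2 lower, where 25.7% of all tested genes differed either way. With limma-voom the count was also 0 in both directions, beside 11.6% of all tested genes. The median log2 difference of the 12 was 0.08. The most abundant were Rabggtb, a subunit of the enzyme that prenylates Rab proteins, at 91.1 ± 1.44 FPKM with perhexiline and 85.7 ± 5.25 with vehicle (SD, n = 3 each), and Fnta, the subunit shared by both other prenyl transferases, at 49.7 ± 2.29 and 43.7 ± 1.56 FPKM (limma adjusted p = 0.342 and 0.084).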
